A study of Mus musculus with 23 samples.

Results

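The 8 genes described here encode signals, receptors and adhesion molecules of the marrow niche that holds blood stem cells. They are Cxcl12, Cxcr4, Lepr, Vcam1, Itga4, Itgb1, Angpt1 and Tek, and they were taken by gene symbol from a table of 24454 genes. They were chosen by name with measured values of these libraries in view, since the CPM levels of Cxcl12, Lepr and Vcam1 were already known to be lower in V617F than in WT CD41-positive stem cells. That comparison is therefore given for all 8 genes as values with no test. All 8 passed the filter on low counts in both library protocols.

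RNA was sequenced from cells sorted from the marrow of C57BL/6 mice that were either SclCre;V617F transgenics (SF1 in the labels, V617F below) or WT, without a transgene named in the labels. In the transgenic mice, tamoxifen activates the V617F mutation of the kinase JAK2, and the Scl promoter that drives Cre is active in blood stem and progenitor cells. Both genotypes received tamoxifen on 5 days and were sampled 12 weeks later, so the WT libraries share the drug exposure. Long-term stem cells (LT-HSC) were sorted as CD48- and CD150+ cells among those that lacked lineage markers and carried cKit and Sca-1. The CD41-positive and CD41-negative HSC are parts of that same gate. Megakaryocyte progenitors (MkP) carried cKit, CD150 and CD41 and lacked lineage markers and Sca-1.

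There were 3 libraries in each of the groups V617F LT-HSC, V617F MkP, V617F CD41-negative HSC, V617F CD41-positive HSC, WT LT-HSC, WT MkP and WT CD41-negative HSC, and 2 in WT CD41-positive HSC. LT-HSC and MkP were prepared with SMART-Seq v2 and the CD41 fractions with SMART-Seq v4, so the protocols were analysed apart and no level was compared across them. All V617F LT-HSC came from males and all WT LT-HSC from females, so sex and genotype cannot be told apart there. All MkP came from females, as did the CD41 fractions apart from V617F library 2 of each fraction. Ages other than the time after tamoxifen and pooling of animals are not stated in the labels, so p-values measure only the spread between these libraries.

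CXCL12 is a chemokine made mainly by reticular stromal cells of the marrow, many of which carry the leptin receptor LEPR. It signals through CXCR4 on stem cells and keeps them in their niche. VCAM1 on stromal cells, endothelium and marrow macrophages binds the integrin VLA-4, the pair of ITGA4 and ITGB1, while ANGPT1 activates the receptor TEK, also called TIE2, which is linked to stem cell quiescence. JAK2 phosphorylates STAT proteins, which bind DNA at paired TTC and GAA half-sites.

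In GRCm38.p6 (mm10) the ligand genes lie at chr6:117168535-117181368 on the plus strand (Cxcl12) and chr15:42424667-42676977 on the minus strand (Angpt1), and the receptor genes at chr1:128588199-128592299 on the minus strand (Cxcr4), chr4:94739086-94874976 on the plus strand (Tek) and chr4:101717137-101815352 on the plus strand (Lepr). Vcam1 lies at chr3:116110020-116129688 on the minus strand, Itga4 at chr2:79255426-79333114 and Itgb1 at chr8:128685654-128733579, both on the plus strand. Exons of Vcam1, Angpt1 and Itga4 overlap Gm43109, Gm17473 and Cerkl on the opposite strand, and no source used here says whether counting used strand.

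The upstream sequences of a ligand, its receptor and the integrin chain that changed are shown because the groups differ in a kinase that acts on STAT proteins. The windows are the 250 bases before an annotated start in GRCm38.p6, from RefSeq: chr6:117168285-117168534 on the plus strand for Cxcl12, chr1:128592300-128592549 on the minus strand for Cxcr4 and chr2:79255176-79255425 on the plus strand for Itga4. Capitals mark matches to the GC box GGGCGG or its reverse complement.
Cxcl12: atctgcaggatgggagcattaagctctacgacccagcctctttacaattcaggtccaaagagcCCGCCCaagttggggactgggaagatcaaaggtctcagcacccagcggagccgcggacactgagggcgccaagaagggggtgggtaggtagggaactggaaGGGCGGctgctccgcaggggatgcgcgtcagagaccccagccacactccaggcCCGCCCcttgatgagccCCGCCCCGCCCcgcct
Cxcr4: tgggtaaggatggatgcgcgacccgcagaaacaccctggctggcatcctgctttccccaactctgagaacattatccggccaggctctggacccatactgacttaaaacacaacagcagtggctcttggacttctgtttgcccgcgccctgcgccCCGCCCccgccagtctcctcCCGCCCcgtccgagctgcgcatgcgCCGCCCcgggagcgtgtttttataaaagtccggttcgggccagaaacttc
Itga4: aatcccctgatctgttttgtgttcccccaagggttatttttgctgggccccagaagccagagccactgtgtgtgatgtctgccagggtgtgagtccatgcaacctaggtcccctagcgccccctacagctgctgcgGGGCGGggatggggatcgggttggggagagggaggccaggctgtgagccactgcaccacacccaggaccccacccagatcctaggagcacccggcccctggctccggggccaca

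Windows were found for 6 of the 8 genes, with 2 starts for Lepr, and none was printed or searched for Vcam1 and Angpt1. The STAT motif TTCNNNGAA, searched on both strands, has no match in these windows, while 7.02% of 32851 promoters of the same length hold one. The GC box has 5 matches in the Cxcl12 window, the last pair of which overlap, 3 in Cxcr4, 1 each in Itga4, Itgb1 and the second Lepr start, and 0 in Tek and the first Lepr start. It is found in 32.7% of promoters. These matches describe letters in short windows and nothing about binding.

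Library totals ranged between 17.6 M and 49.2 M counts, with a median of 22.2 M, and 3 counts in a library correspond to 0.0597 to 0.171 counts per M (CPM), here on the TMM-scaled total. Totals were lower and genes with counts more numerous in V617F LT-HSC (17.6 to 22.0 M counts, 15298 to 15697 genes) than in WT LT-HSC (34.6 to 49.2 M, 12876 to 13805 genes). In MkP the V617F libraries had 22.1 to 33.8 M counts and 14634 to 15167 genes, against 30.9 to 41.1 M and 11483 to 12463 genes in WT. WT LT-HSC library 30 stood apart: its Spearman correlations with WT libraries 31 and 32 were 0.801 and 0.805, against 0.909 between those other libraries. Markers of the sorted cells were read as summed levels. The stem cell list reached 2180 CPM or more in every CD41-fraction library. The megakaryocyte list summed to 2431 to 3525 CPM in V617F CD41-positive HSC against 1224 to 1376 CPM in V617F CD41-negative HSC. Stem cell sums were 1702 to 2408 CPM in V617F LT-HSC and 999 to 1214 CPM in V617F MkP. In WT they overlapped, at 1324 to 2581 CPM in LT-HSC and 1156 to 1331 CPM in MkP. Megakaryocyte sums were 6501 to 7680 CPM in V617F MkP against 1564 to 1724.5 CPM in V617F LT-HSC. In WT they were 5821 to 6613 CPM in MkP and 1605 to 3489 CPM in LT-HSC.

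In the CD41 fractions the 8 genes fell into an abundant and a scarce set, judged per kb of the gene length deposited with the counts. The split did not hold in every SMART-Seq v2 group. In WT LT-HSC, Vcam1 averaged 3.91 CPM per kb, Cxcr4 0.714 and Itga4 4.43. In WT MkP, Vcam1 averaged 2.93 and Cxcr4 3.02 CPM per kb. In V617F CD41-negative HSC, Angpt1 had 205 ± 14.9 CPM per kb and Itgb1 124 ± 2.39 (SD, n = 3 each), and only 1.34% and 3.55% of the 14467 fitted genes had a higher level per kb. Tek followed with 25.0 ± 1.96 CPM per kb, Itga4 with 18.2 ± 2.55 and Cxcr4 with 9.70 ± 3.03. Vcam1, Lepr and Cxcl12 had 0.229 ± 0.027, 0.101 ± 0.0745 and 0.0700 ± 0.0759 CPM per kb, a range in which the SDs overlap for Lepr and Cxcl12. The order of the abundant genes, Angpt1 above Itgb1 above Tek above Itga4, was the same in the means of the 8 groups, with WT MkP as the exception, where Itgb1 had 117 ± 23.9 and Angpt1 78.8 ± 6.58 CPM per kb (SD, n = 3 each).

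**Figure D1:**
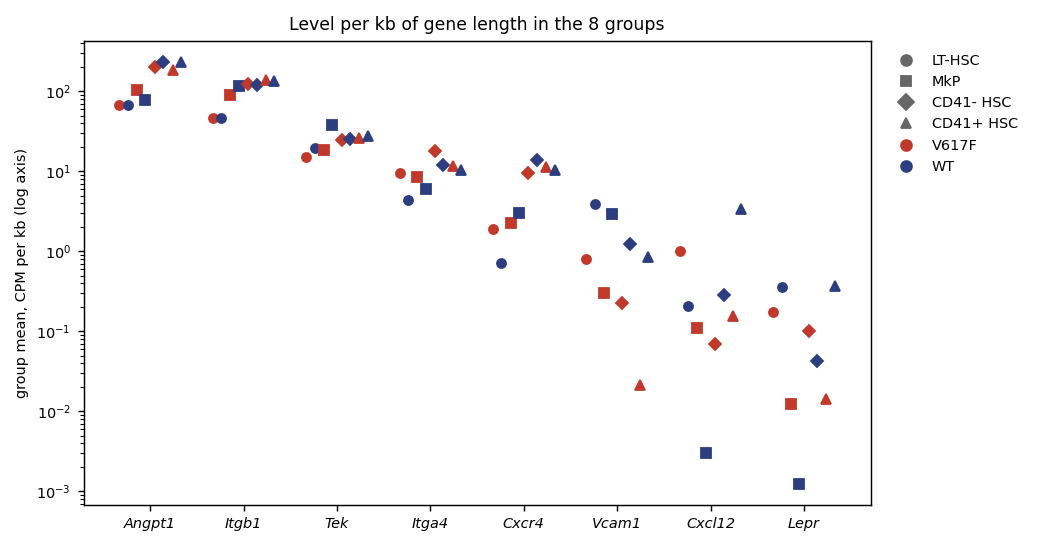
Group means of the 8 genes in CPM per kb of gene length, on a log axis, with the population given by the symbol and V617F drawn left of WT. Angpt1 and Itgb1 lie between 46.6 and 235 CPM per kb in every group, and Cxcl12, Lepr and Vcam1 lie under 4.

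Cxcl12, the niche ligand of CXCR4, was a scarce transcript in all groups. In CD41-positive HSC it had 0.513, 1.4 and 1.45 CPM in V617F libraries, against 32.7 and 15.6 CPM in WT libraries. The groups did not overlap, the V617F mean was 1.12 CPM against 24.1 CPM in WT, and the fitted log2 fold change was -4.40 with no test. Behind these levels stood 9, 28 and 31 counts in V617F and 668 and 362 in WT. The leptin receptor gene Lepr had 0.285, 0 and 0 CPM in V617F CD41-positive HSC, which is 5 counts in 1 library, against 2.69 and 2.24 CPM in WT. Vcam1, the ligand of VLA-4, had 0.171, 0.0498 and 0 CPM, which is 3, 1 and 0 counts, in V617F, against 2.84 and 2.89 CPM in WT. Lepr and Vcam1 were thus at or close to the level of 3 counts in V617F, and all 3 genes were above it in both WT libraries. Without WT library 3, the log2 fold change of Cxcl12 was -3.78.

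The other members were close between genotypes in CD41-positive HSC. Angpt1, the ligand of TEK, had 814, 831 and 732 CPM in V617F against 1010 and 991 CPM in WT. Tek had 126, 124 and 119 CPM in V617F against 130 and 128 CPM in WT. Both were lower without overlap, at log2 fold changes of -0.34 and -0.06. Itga4, the alpha chain of VLA-4, had 113, 122 and 113 CPM in V617F against 103 and 100 CPM in WT, a log2 fold change of 0.20 without overlap. Cxcr4 (log2 fold change 0.11) and Itgb1 (0.05) overlapped between genotypes. In all, 1 gene was higher and 5 were lower without overlap, where 41.7% of all fitted genes did not overlap (23.9% higher, 17.8% lower) and 1.16% passed the edgeR test. Nothing is read from that count, since this comparison lay behind the choice of the genes.

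Markers of other cell types also differed between V617F and WT CD41-positive libraries. Of the 20 genes of the stromal list, fixed with earlier results known, the summed level was 46.4 to 49.2 CPM in V617F and 64.5 to 70.4 CPM in WT, and Pdgfra, Cspg4, Lum and Grem1 were at 0 counts in all V617F libraries, against Lum and Bglap in WT. Adipoq, which marrow reticular and fat cells express, had 0, 0 and 0.0469 CPM in V617F against 0.978 and 1.55 CPM in WT. Igfbp5 had 0.399, 0.798 and 0.141 CPM in V617F against 3.32 and 1.21 CPM in WT. Col1a2, with 22.9 ± 7.98 CPM in V617F (SD, n = 3) and 34.9 ± 1.65 CPM in WT (SD, n = 2), and Pdgfrb, with 8.70 ± 6.52 CPM in V617F and 9.07 ± 0.452 CPM in WT, made up most of the sum. Of the 11 stromal genes tested, 1 fell (Adipoq) and 0 rose. The macrophage list summed to 34.6 to 35.9 CPM in V617F and 41.6 to 49.2 CPM in WT over 14 genes, with Cd5l at 0 in V617F, and 1 of its 12 tested genes fell. Of 9 endothelial genes tested, 2 fell and 0 rose: Ramp2 had 0.425 ± 0.243 CPM in V617F and 4.64 ± 0.284 CPM in WT, and Cldn5 0.213 ± 0.257 and 4.34 ± 2.43 CPM. Of the 9, 4 had positive log2 fold changes. The most abundant were Egfl7, at 74.5 CPM in V617F and 67.0 CPM in WT, and Robo4, at 26.0 and 36.8 CPM. The list sums overlapped, at 142 to 158 CPM in V617F and 147 to 183 CPM in WT. Of 11 erythroid genes, 4 fell and 0 rose, among them Car1 with 0.977 ± 0.625 CPM in V617F and 23.4 ± 5.49 CPM in WT. Hba-a1 and Hba-a2, also among the 4, each had 0.145 ± 0.126 CPM in V617F and 16.9 ± 19 CPM in WT. The WT libraries differed, at 30.4 and 3.49 CPM of Hba-a1. Of the 11, 3 had positive log2 fold changes. The most abundant were Klf1, at 29.0 CPM in V617F and 27.9 CPM in WT, and Tfrc, at 73.3 and 48.8 CPM. The list sums overlapped, at 144 to 194 CPM in V617F and 176 to 246 CPM in WT. Granulocyte markers went mostly the other way: 9 of 10 tested had positive log2 fold changes (median 2.30), though 0 passed as higher and 1 fell. Mpo averaged 9.41 CPM in V617F and 0.950 CPM in WT, and Ngp 11.4 and 2.30 CPM. Their sums overlapped, at 51.8 to 136 CPM in V617F and 82.5 to 91.1 CPM in WT. Adipoq, Igfbp5, Ramp2, Cldn5 and Car1 were picked after their values were seen. The part of these cells in the Cxcl12, Lepr and Vcam1 values was not tested. In sorted bulk samples, fewer cells of a type and less RNA per cell cannot be told apart.

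**Figure D2:**
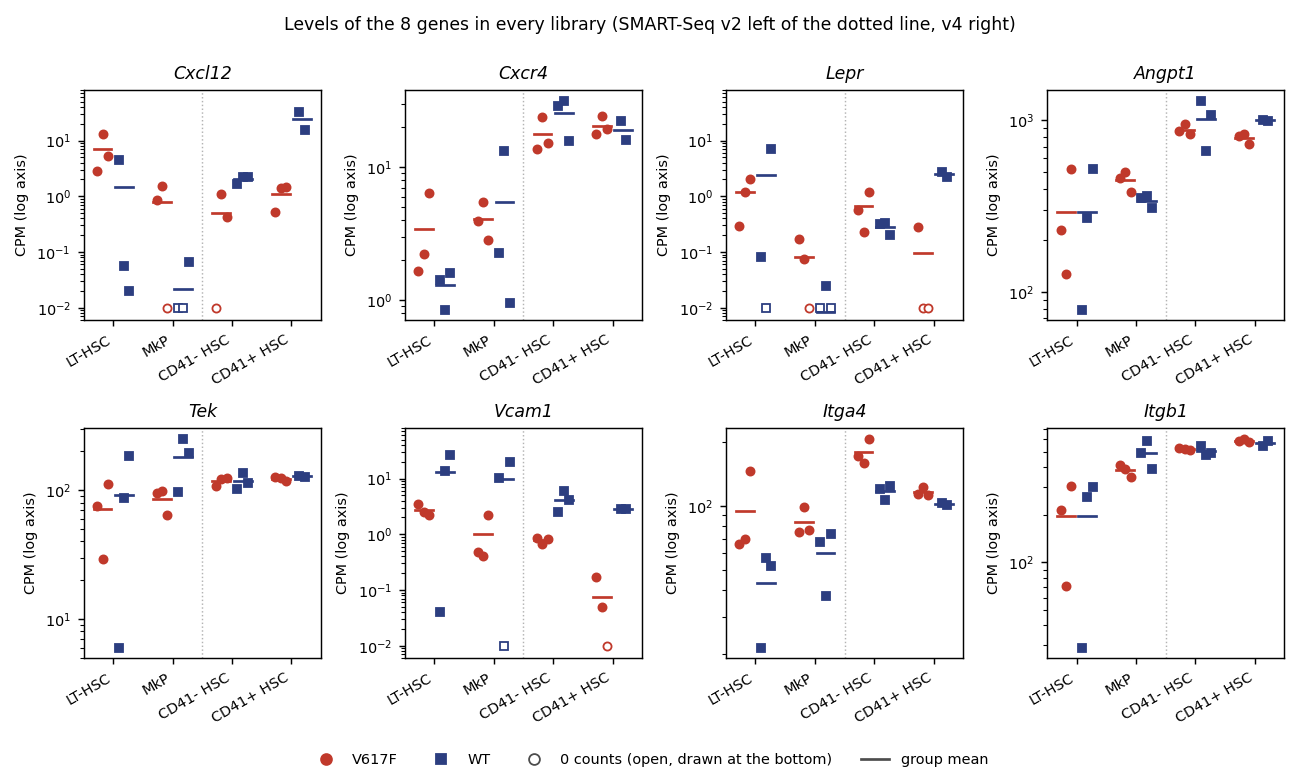
CPM of each gene in every library on a log axis, with V617F circles left of WT squares, lines for group means and open symbols for 0 counts. Cxcl12, Lepr and Vcam1 are low in V617F CD41-positive HSC, while Angpt1, Tek, Itga4, Itgb1 and Cxcr4 lie close between genotypes there.

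V617F CD41-negative HSC, which were tested against WT, differed in transcripts of Vcam1 and of Itga4. Protein was not measured. Of the 8 genes, 2 passed the edgeR quasi-likelihood test with Benjamini-Hochberg adjustment, 1 higher and 1 lower. Over all 14467 genes, 13.4% passed (5.48% higher, 7.94% lower), and the median log2 fold change was -0.11 over the 8 genes and -0.01 over all.

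Vcam1 had 0.849, 0.674 and 0.812 CPM in V617F CD41-negative HSC against 2.5, 5.91 and 4.08 CPM in WT. The 3 V617F libraries lay below every WT library, on 25, 15 and 23 counts against 47, 108 and 81. Among all genes, 30.3% did not overlap between these groups. Vcam1 fell at a log2 fold change of -2.40 ± 0.42 (SE) with adjusted p = 0.00847 in edgeR. It passed in all 14 alternatives that kept it in the fit, and its log2 fold change ranged between -2.68 and -2.07. WT library 1 had the most granulocyte RNA of these libraries, 580 CPM against 114 and 166 CPM in the other WT libraries, and without it Vcam1 was at -2.68.

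Itga4 had 171, 159 and 207 CPM in V617F CD41-negative HSC against 120, 107 and 124 CPM in WT. All 3 V617F libraries lay above all 3 WT libraries, with 3530 to 5858 counts against 1951 to 2468. Itga4 rose by a log2 fold change of 0.61 ± 0.12 (SE) with adjusted p = 0.0118 in edgeR. It did not pass without V617F library 3 (log2 fold change 0.49, adjusted p = 0.0558) or in a fit of only the groups compared (adjusted p = 0.0622). Cerkl, which overlaps Itga4, had 12.1 ± 0.837 CPM in V617F and 9.81 ± 2.84 CPM in WT (SD, n = 3 each).

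The other VLA-4 chain, Itgb1, had 531, 521 and 511 CPM in V617F CD41-negative HSC against 544, 478 and 487 CPM in WT. The groups overlapped and Itgb1 did not pass (log2 fold change 0.05, 95% interval -0.20 to 0.30, adjusted p = 0.772 in edgeR). The ratio of Itgb1 to Itga4 per kb was 5.79 to 7.70 in V617F and 9.19 to 10.6 in WT, so beta chain transcripts outnumbered alpha chain transcripts in every library of both groups.

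Cxcl12 had 0, 1.08 and 0.424 CPM in V617F CD41-negative HSC against 1.65, 2.24 and 2.22 CPM in WT. The groups did not overlap, on 0 to 24 counts against 31 to 44, and the log2 fold change of -2.10 ± 0.70 (SE) missed the threshold with adjusted p = 0.0612 in edgeR. Its adjusted p ranged between 0.0121 and 0.155 over 14 alternatives, and 4 of them passed. Cxcr4 had 13.6, 23.9 and 15.3 CPM in V617F against 29.0, 31.6 and 15.6 CPM in WT, with overlap, a log2 fold change of -0.53 ± 0.28 (SE) and adjusted p = 0.177 in edgeR. With the replicate number as a block, 4 members passed, Cxcl12 (log2 fold change -2.93) and Cxcr4 (-0.94) in addition to the other two. The numbers there join different mice of the 2 genotypes.

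Lepr had 0.577, 0.225 and 1.20 CPM in V617F CD41-negative HSC against 0.319, 0.328 and 0.201 CPM in WT, on 5 to 34 and 4 to 6 counts. The groups overlapped, and the test gave a log2 fold change of 1.25 (95% interval -0.42 to 2.92, adjusted p = 0.25 in edgeR). For Angpt1, V617F libraries had 865, 955 and 830 CPM and WT libraries 1303, 659 and 1076 CPM, the widest spread among the WT values of the abundant genes. Its log2 fold change was -0.20 (95% interval -0.64 to 0.25, adjusted p = 0.499 in edgeR). Tek, its receptor, had 107, 121 and 124 CPM in V617F against 103, 137 and 115 CPM in WT (log2 fold change -0.01, 95% interval -0.26 to 0.24, adjusted p = 0.968 in edgeR).

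Markers of several other cell types differed between V617F and WT CD41-negative HSC along with Vcam1. Of the 14 genes of the macrophage list, 12 were tested, 7 fell and 1 rose. C1qa, a complement gene of macrophages, had 0.136, 0.135 and 0 CPM in V617F against 2.87, 1.64 and 1.11 CPM in WT, and Mrc1 had 0.102, 0 and 0.0706 CPM against 1.76, 1.04 and 0.907 CPM. Adgre1 and Cd5l were at 0 in all V617F libraries, and no gene of the list was at 0 in all WT libraries. The list summed to 63.7 to 74.0 CPM in V617F and 83.5 to 94.9 CPM in WT, mostly from Axl, at 24.4 CPM in V617F and 38.8 CPM in WT, and from Cd68, which was higher in V617F at 20.8 CPM against 12.3 CPM. Of 9 endothelial genes tested, 4 fell and 0 rose: Flt4, Ramp2, Cldn5 and Kdr, at log2 fold changes of -3.17, -2.36, -4.00 and -1.04. The endothelial list summed to 236 to 242 CPM in V617F and 236 to 321 CPM in WT. The stromal list overlapped at 65.8 to 80.8 CPM in V617F and 66.2 to 90.9 CPM in WT, and of its 11 genes tested 1 fell, Foxc1, at -5.31. Of 11 erythroid genes, 8 fell. C1qa, Mrc1 and the endothelial and stromal genes that fell were picked after their values were seen. The part of such cells in the Vcam1 result was not tested.

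**Figure D3:**
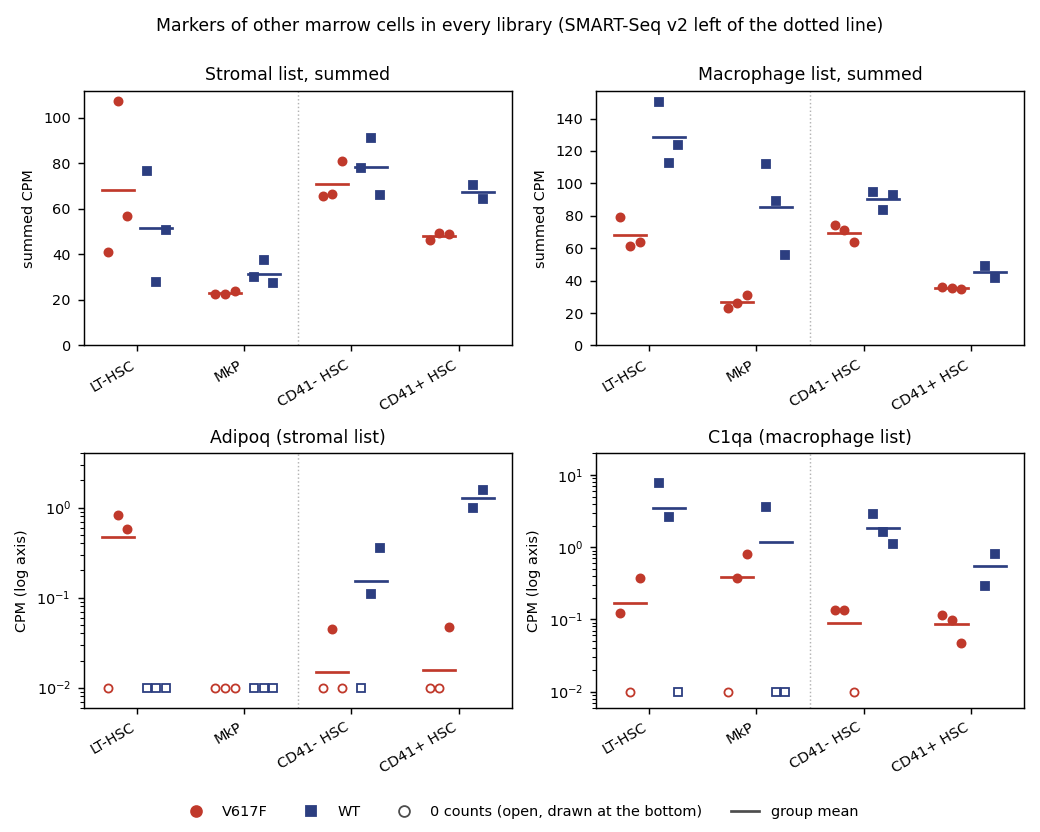
Summed CPM of the stromal and macrophage lists (top, axis from 0) and CPM of Adipoq and C1qa (bottom, log axis, open symbols for 0 counts) in every library, V617F left of WT. In CD41-positive HSC the stromal sum is 46.4 to 49.2 CPM in V617F and 64.5 to 70.4 CPM in WT, and in CD41-negative HSC the V617F macrophage sums of 63.7 to 74.0 CPM lie below those of WT.

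LT-HSC gave no member that passed between genotypes: 0 of 8 in edgeR, where 0.063% of 14281 genes passed. Itga4 was the one member with an unadjusted p under 0.05, with 66.2, 69.7 and 146 CPM in V617F against 21.5, 56.8 and 52.3 CPM in WT. Its groups did not overlap (log2 fold change 1.11 ± 0.46 SE, unadjusted p = 0.0312 and adjusted p = 0.336 in edgeR). DESeq2 and limma-voom also gave 0 members. Cxcr4 had 1.66, 2.23 and 6.38 CPM in V617F against 1.42, 0.849 and 1.61 CPM in WT, again without overlap (log2 fold change 1.40, 95% interval -0.97 to 3.76). In these LT-HSC, 2 members were higher and 0 lower without overlap, against 19.2% of all genes in either direction and 13.6% higher.

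The other 6 members overlapped between genotypes in LT-HSC. Cxcl12 had 2.82, 13.3 and 5.38 CPM in V617F LT-HSC against 4.39, 0.0566 and 0.0199 CPM in WT, where 108 of its 111 counts came from the library that stood apart. Lepr had 0.290, 1.20 and 2.04 CPM in V617F against 0.0814, 0 and 7.14 CPM in WT, and Vcam1 3.52, 2.49 and 2.25 CPM in V617F against 0.0407, 13.5 and 26.2 CPM in WT. The WT values of Cxcl12, Lepr and Vcam1 spread more widely, relative to their means, than those of V617F. Angpt1 had 229, 126 and 519 CPM in V617F against 78.7, 269 and 524 CPM in WT, Itgb1 214, 70.6 and 303 CPM in V617F against 28.9, 259 and 298 CPM in WT, and Tek 75.3, 29.0 and 112 CPM in V617F against 5.98, 86.5 and 183 CPM in WT. In WT library 30, Itgb1, Tek and Angpt1 were at 28.9, 5.98 and 78.7 CPM, the lowest of the 12 SMART-Seq v2 libraries for each of them. V617F library 7 had the next lowest values of these genes and the highest Cxcl12. Its stromal list summed to 107 CPM, against 40.9 to 56.9 CPM in the other V617F libraries and 27.8 to 76.4 CPM in WT. Of the 20 stromal genes, 14 were at 0 in all WT LT-HSC and 2 in all V617F LT-HSC, and the part of such cells in the Cxcl12 values was not tested.

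MkP also gave 0 of 8 members between genotypes in edgeR, where 1.75% of 14281 genes passed. DESeq2 and limma-voom gave 0 as well, and no member had an unadjusted p under 0.05. Vcam1 had 0.473, 0.406 and 2.21 CPM in V617F MkP against 10.1, 0 and 19.8 CPM in WT, so 1 WT library lay below all V617F libraries (log2 fold change -3.26, 95% interval -7.47 to 0.95, adjusted p = 0.502 in edgeR). Tek had 95, 99.3 and 64.2 CPM in V617F against 96.7, 252 and 194 CPM in WT (log2 fold change -1.07, 95% interval -2.88 to 0.74). Cxcl12 had 20, 41 and 0 counts in V617F against 0, 0 and 2 counts in WT, and Lepr 4, 2 and 0 counts against 0, 1 and 0.

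Itga4 had 75.4, 98.5 and 77.2 CPM in V617F MkP against 67.7, 37.8 and 73.4 CPM in WT, and Angpt1 464, 499 and 380 CPM against 352, 360 and 308 CPM. Both were higher without overlap, at log2 fold changes of 0.49 and 0.40, where 31% of all genes did not overlap in either direction and 21% were higher without overlap. Between genotypes, Itga4 passed the test in CD41-negative HSC, though not in every alternative. It did not pass in LT-HSC, where sex and genotype coincide, or in MkP (adjusted p = 0.336 and 0.748 in edgeR). Its mean was higher in V617F in each of these populations. The CD41-positive values of Itga4 are not counted with them, since that comparison lay behind the choice of the genes. Itgb1 had 410, 390 and 345 CPM in V617F MkP against 492, 588 and 388 CPM in WT. Cxcr4 had 3.91, 5.43 and 2.86 CPM against 2.27, 13.2 and 0.947 CPM. Granulocyte genes summed to 1131 to 2575 CPM in V617F MkP and 8334 to 12299 CPM in WT, with Mpo the most abundant, and macrophage genes to 23.0 to 31.2 and 55.6 to 112 CPM. In LT-HSC the granulocyte sums were 475 to 1177 CPM in V617F and 3746 to 6863 CPM in WT. The part of these genes' cells in the member values was not tested.

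Sex differs between the V617F and WT LT-HSC and not between the MkP, so it cannot be told apart from the difference of genotype effects. The genotype difference in MkP minus that in LT-HSC passed for 0 of 8 members in edgeR, where 0.455% of genes passed. The 8 adjusted p-values were 0.852 or higher, no unadjusted p was under 0.05, and DESeq2 and limma-voom gave 0.

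**Figure D4:**
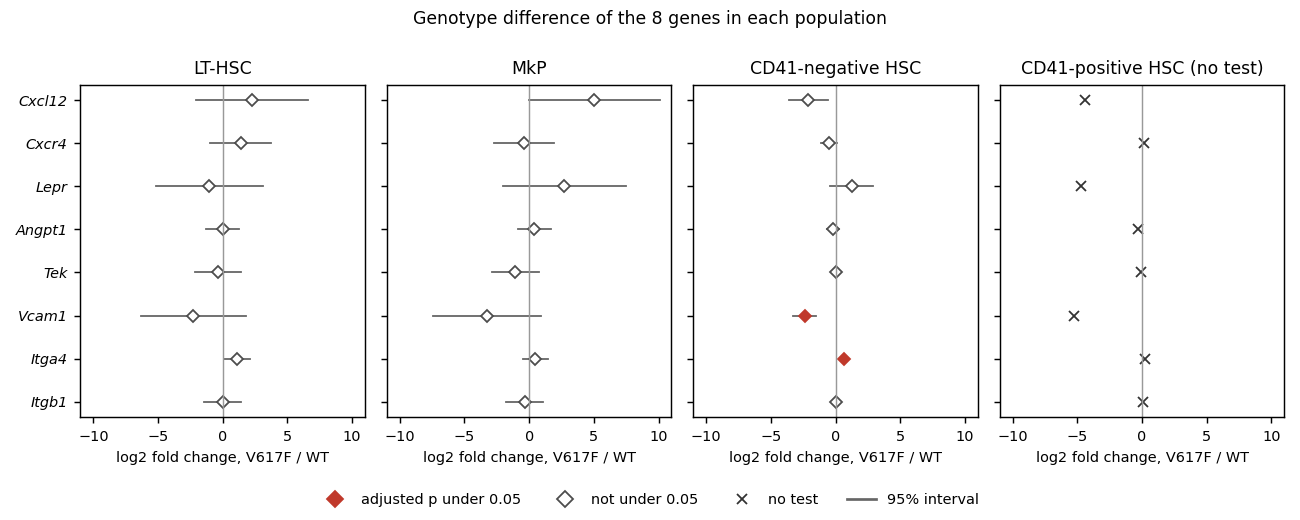
Log2 fold change of V617F over WT for each gene in the 4 populations, with 95% intervals from the edgeR fit; filled diamonds passed and crosses were not tested. Vcam1 (-2.40) and Itga4 (0.61) pass in CD41-negative HSC, and the intervals in LT-HSC and MkP are wider.

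Of the 5 members tested between the CD41 fractions, Itga4 was the 1 that passed, in V617F. There it fell to 113, 122 and 113 CPM in CD41-positive HSC, against 171, 159 and 207 CPM in CD41-negative HSC (log2 fold change -0.62 ± 0.12 SE, adjusted p = 0.00146 in edgeR). The groups did not overlap, and the call held in all 15 alternatives. It is 1 of 5 members tested, and 34.3% of all genes passed (16.4% higher, 17.9% lower), so the share is no higher than the background. This comparison uses the same V617F CD41-negative libraries as the genotype test above. In WT, Itga4 had 103 and 100 CPM in CD41-positive HSC against 120, 107 and 124 CPM in CD41-negative HSC (log2 fold change -0.21, 95% interval -0.49 to 0.08, adjusted p = 0.233). Whether the fraction difference of Itga4 differs between genotypes was not tested.

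In WT, 0 of 5 tested members passed between fractions, where 34% of genes did (15.7% higher, 18.2% lower), no unadjusted p was under 0.05, and DESeq2 and limma-voom gave 0. Itgb1 was higher without overlap in CD41-positive HSC of both genotypes, where 56.1% of genes did not overlap in V617F and 56.8% in WT, with a log2 fold change of 0.17 in each (adjusted p = 0.273 in V617F and 0.316 in WT). Cxcr4, Angpt1 and Tek overlapped between fractions in both genotypes, with log2 fold changes of 0.22, -0.16 and 0.07 in V617F and -0.42, -0.02 and 0.12 in WT. Among the genes described without a test, Cxcl12 averaged 24.1 CPM in WT CD41-positive HSC and 2.04 CPM in WT CD41-negative HSC, and Lepr 2.46 CPM in WT CD41-positive HSC and 0.283 CPM in WT CD41-negative HSC. Vcam1 averaged 2.86 CPM in WT CD41-positive HSC and 4.16 CPM in WT CD41-negative HSC. In V617F the CD41-positive and CD41-negative means were 1.12 and 0.501 CPM for Cxcl12, 0.0949 and 0.667 CPM for Lepr and 0.0736 and 0.778 CPM for Vcam1. Without a test, Cxcl12 and Lepr were higher without overlap in WT CD41-positive HSC (log2 fold changes 3.56 and 3.10). Vcam1 was lower without overlap in V617F CD41-positive HSC (-3.41). Vcam1 in WT, and Cxcl12 and Lepr in V617F, overlapped between fractions.

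Between MkP and LT-HSC, 0 of 8 members passed in V617F, where 1.09% of genes passed, and 0 of 8 in WT, where 8.9% passed. In V617F no unadjusted p was under 0.05, and DESeq2 and limma-voom gave 0. All V617F MkP came from females and all V617F LT-HSC from males, so sex and population cannot be told apart in V617F. Groups did not overlap for 41.4% of genes in V617F and 20.5% in WT. Itgb1 was higher without overlap in MkP of both genotypes, with 345 to 410 CPM against 70.6 to 303 CPM in V617F LT-HSC, and 388 to 588 CPM against 28.9 to 298 CPM in WT LT-HSC. Its log2 fold changes were 0.96 (95% interval -0.49 to 2.41) in V617F and 1.32 (-0.14 to 2.79) in WT. In V617F MkP, Cxcl12, Lepr and Vcam1 lay below all V617F LT-HSC libraries, at log2 fold changes of -3.17, -3.81 and -1.41 that did not pass (adjusted p = 0.741, 0.645 and 0.962 in edgeR). In WT, Cxcl12 and Lepr had unadjusted p-values of 0.03 and 0.012 and passed in DESeq2 but not in limma-voom, on 0 to 2 counts in MkP and on 1 high LT-HSC library each, library 30 for Cxcl12 and library 32 for Lepr.

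Partners of the 8 genes were read from 6 lists chosen with earlier results known, by counts and medians. In CD41-negative HSC, 28 of their 110 tested genes (25.5%) passed between V617F and WT, where 13.4% of all genes did. The lists themselves were not tested. Of 23 genes of CXCL12-CXCR4 signalling, 1 rose and 3 fell (median log2 fold change -0.20, against -0.01 over all genes). Rgs2, a brake on G-protein signals, had 80.4 ± 12.0 CPM in V617F and 41.1 ± 6.36 CPM in WT, while Grk2, which desensitises CXCR4, had 147 ± 27.5 and 252 ± 56.4 CPM, and the actin regulator Was 45.1 ± 3.64 and 111 ± 56.8 CPM (SD, n = 3 each). Of 18 genes of the angiopoietin, TIE and FOXO list, 0 rose and 5 fell (median -0.46). Mmrn1 had 475 ± 122 CPM in V617F against 876 ± 212 CPM in WT, Foxo1, a transcription factor restrained by AKT, 43.7 ± 10.3 against 78.4 ± 19.8 CPM, and Ptprb, a phosphatase that acts on TEK, 0 counts in all V617F libraries against 0.328 ± 0.242 CPM, near the level of 3 counts.

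Of 22 other integrin and adhesion genes, 1 rose and 4 fell in V617F CD41-negative HSC (median -0.10). The selectin ligand Selplg had 316 ± 9.59 CPM in V617F against 237 ± 13.6 CPM in WT, the beta chain Itgb7, another partner of ITGA4, 28.2 ± 1.72 against 48.0 ± 13.3 CPM, and Itgb5 1.44 ± 0.982 against 6.12 ± 1.37 CPM. Among 16 genes that activate integrins or link them to actin, 1 rose and 3 fell (median -0.11), with Ptk2b at 203 ± 11.5 CPM in V617F against 281 ± 16.3 CPM in WT, talin Tln1 at 742 ± 112 against 1406 ± 556 CPM and paxillin Pxn at 117 ± 16.6 against 182 ± 54.5 CPM. Among 18 other receptors of niche signals, 2 rose and 5 fell (median -0.50): Bmpr2 had 31.7 ± 3.02 CPM in V617F against 19.2 ± 2.42 CPM in WT, and Fzd8 7.22 ± 3.43 against 19.4 ± 6.23 CPM. Of 13 proteases and inhibitors, 3 rose and 0 fell (median 0.00). They were Serpinb1a, an inhibitor of neutrophil proteases, at 187 ± 25.8 CPM in V617F against 82.9 ± 21.2 CPM in WT, Mmp2 at 54.6 ± 9.98 against 15.6 ± 5.32 CPM and Timp3 at 47.2 ± 7.30 against 30.6 ± 2.79 CPM.

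In CD41-positive HSC, 4 of the 110 genes tested in these lists passed between genotypes, where 1.16% of all genes did. Jam3, a junctional adhesion molecule, had 11.7 ± 1.86 CPM in V617F (SD, n = 3) and 23.3 ± 2.73 CPM in WT (SD, n = 2), Itga9 1.47 ± 0.543 and 6.21 ± 2.14 CPM, and the neutrophil protease gene Prtn3 41.6 ± 5.46 and 77.5 ± 6.23 CPM. Among 10 granulocyte markers Prtn3 was the 1 that fell, while 9 had positive log2 fold changes. Mmp2, which encodes a gelatinase, was higher, with 18.4 ± 7.47 CPM in V617F and 6.06 ± 1.25 CPM in WT. In LT-HSC and MkP the small GTPase gene Rac1 was the one gene of the lists that passed, with 273 ± 22.2 CPM in V617F LT-HSC against 23.1 ± 14.4 CPM in WT, and 342 ± 32.4 CPM in V617F MkP against 29.0 ± 7.06 CPM in WT (SD, n = 3 each). Both populations were sequenced with SMART-Seq v2, in which depth and genes with counts also differed between genotypes, as given above, and their part in the Rac1 values was not tested.

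Between fractions, 53 of the 110 list genes (48.2%) passed in V617F, where 34.3% of all genes did, and 58 (52.7%) in WT, where 34% did, and the share differed between lists. Other niche receptors showed 1 gene higher and 12 lower of 18 in V617F (median -0.94) and 1 higher and 13 lower of 18 in WT (median -0.93), against medians of -0.02 and -0.04 over all genes. Flt3, a receptor of early progenitors, had 15.6 CPM in V617F CD41-positive HSC against 97.7 CPM in V617F CD41-negative HSC, and 13.2 against 59.5 CPM in WT. Csf3r and S1pr1 were next in V617F, at 28.6 and 33.6 CPM in CD41-positive HSC against 130 and 77.3 CPM in CD41-negative HSC. Robo4 and Notch2 were next in WT, at 36.8 and 104 CPM against 98.8 and 242 CPM. Integrin genes showed 2 higher and 10 lower of 22 in V617F and 3 higher and 8 lower in WT. Itgb3, the partner of the sort marker CD41, had 266 CPM in CD41-positive HSC against 105 CPM in CD41-negative HSC of V617F mice, and 201 against 78.8 CPM in WT. Icam1 had 37.3 against 108 CPM in V617F and 51.3 against 134 CPM in WT, and Itgb7 10.4 against 28.2 CPM in V617F and 13.9 against 48.0 CPM in WT.

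Integrin activation genes showed 6 higher and 2 lower of 16 in V617F and 7 higher and 5 lower in WT. Rap1b, a GTPase that activates integrins in platelets, had 1198 against 387 CPM in V617F and 1272 against 334 CPM in WT, and Vcl (223 against 101 CPM in V617F, 208 against 98.9 CPM in WT) and Lims1 (475 against 190 CPM in V617F, 417 against 130 CPM in WT) followed. CXCL12-CXCR4 signalling showed 3 higher and 8 lower of 23 in V617F and 1 higher and 9 lower in WT. Dpp4, a peptidase that cleaves CXCL12, had 33.0 CPM in CD41-positive HSC against 73.0 CPM in CD41-negative HSC of V617F mice. Ptpn6 had 265 against 418 CPM in V617F and 286 against 483 CPM in WT. The angiopoietin list lay below the share of all genes, with 2 higher and 3 lower of 18 in V617F and 1 higher and 4 lower in WT, and Angptl2 was at 7.31 against 13.6 CPM in V617F and 7.33 against 16.6 CPM in WT. Proteases and inhibitors showed 1 higher and 3 lower of 13 in V617F and 2 higher and 4 lower in WT, with Timp3 at 155 against 47.2 CPM in V617F and 133 against 30.6 CPM in WT.

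Between MkP and LT-HSC, 7 of 107 list genes (6.54%) passed in V617F, where 1.09% of all genes did, and 12 (11.2%) in WT, where 8.9% did. Rap1b passed in both genotypes, with 1854 CPM in MkP against 124 CPM in LT-HSC of V617F mice and 654 against 52.8 CPM in WT, as did Timp3 (271 against 39.7 CPM in V617F, 194 against 17.9 CPM in WT) and Ptpn6, which was lower in MkP (252 against 563 CPM in V617F, 360 against 779 CPM in WT). Itgb3 passed in WT, with 144 CPM in MkP against 17.6 CPM in LT-HSC, and Selplg in V617F, with 116 against 394 CPM.

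The genes most like Cxcl12 over the 11 SMART-Seq v4 libraries, by Pearson's r of log2 CPM among 10645 genes with a mean of at least 5 CPM, were Srgap3 (r = 0.908), Ncam1 (0.89) and Fhl1 (0.878). Ncam1 averaged 7.20 CPM in V617F CD41-positive HSC against 16.1 CPM in WT, and Fhl1 62.6 against 117 CPM. Nothing is read from these means, since both genes were picked for following Cxcl12 over the same libraries. For Cxcr4 they were Deaf1, Thap4 and Atg4b (r = 0.924, 0.921 and 0.913), and for Tek Cdkn2aip, Ttl and Zfp410 (0.88, 0.87 and 0.86). Over the 12 SMART-Seq v2 libraries they were Mlph, Mpnd and Chd6 for Cxcl12 (r = 0.897, 0.892 and 0.886), Cnot4, Ipo8 and Zfp738 for Cxcr4 (0.936, 0.93 and 0.912), and Tmem168, Tm9sf2 and Ggta1 for Tek (0.975, 0.97 and 0.965). Among the members, Itgb1 correlated with Tek at 0.92 and with Angpt1 at 0.89 over the SMART-Seq v2 libraries, where these genes share the low library 30, and at 0.01 and 0.04 over the v4 libraries. Cxcl12 and Itga4 correlated at 0.13 over the v2 libraries and at -0.71 over the v4 libraries. These values describe points that share libraries, populations and depth, and carry no p.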

How the data were processed

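Reads were aligned to mm10 with STAR 2.5.2a, and R 3.4.2 and limma are also named, per the submitters' processing notes; neither the counting program nor its annotation is given there. The authors deposited whole-number counts per gene, not normalised, with a gene length in bases. The members, lists and tests were chosen with earlier results of these data known. From the counts, edgeR 4.0.16 in R 4.3.3 was run apart for the 12 SMART-Seq v2 and 11 v4 libraries with TMM scaling, filterByExpr and quasi-likelihood F tests over all groups of a protocol; 14281 and 14467 genes were kept. P-values were adjusted by Benjamini-Hochberg over those genes, with a threshold of 0.05, and intervals are 95%. Levels are CPM of the TMM-scaled total, and CPM per kb where genes are compared. The fit was checked on simulated counts with changes placed only in better expressed genes, so that check does not cover genes as low as Cxcl12, Lepr and Vcam1. Each list's 3 genes with the smallest adjusted p among those that passed could be named. Genes of like pattern exclude predicted genes and pseudogenes.

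Alternatives were RLE size factors, DESeq2 1.42.0, limma-voom (limma 3.58.1), fits without a filter or with at least 5 CPM required in 3 libraries, only the groups compared, each library left out (a lone WT CD41-positive library is then assumed to vary like the other groups), sex as a covariate or without the male mouse in the CD41 fractions, and the replicate number as a block. Same-numbered V617F CD41 libraries deviated together (r = 0.301, 0.419 and 0.298), so the numbers may pair them, though the labels do not state it. V617F and WT libraries that share a number are different mice. Gene positions and promoters are from RefSeq (GRCm38.p6). Counts of 0 and floors of 3 counts reflect counting error only. Figures were drawn with matplotlib. One gene of a list is not reported here.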

Additional observations from a re-analysis of the deposited data

Results flagged for a closer look

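The sign of the Angpt1 difference was opposite in 2 populations: all V617F libraries lay above all WT libraries in MkP, with a log2 fold change of 0.40, and below them in CD41-positive HSC, with -0.34. In MkP, Angpt1 did not pass between genotypes (interval of the log2 fold change -0.88 to 1.67, adjusted p = 0.879 in edgeR). Groups did not overlap for 31% of all genes in MkP (21% higher) and for 41.7% in CD41-positive HSC (17.8% lower). The CD41-positive comparison lay behind the choice of the genes and is given with no test. The 2 populations were prepared with different protocols, and the difference between them was not tested.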

How the results depend on the processing

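Vcam1 in CD41-negative HSC and Itga4 between V617F fractions passed in every alternative that fitted them. In CD41-negative HSC, 2 members passed; the count was 1 with a filter of 5 CPM, which left Vcam1 out, 1 in a fit of only the groups compared and 4 with the replicate block, and it lay between 1 and 3 when single libraries were left out (1 without V617F library 3, and 3 without V617F library 2 or without WT library 4). Between V617F fractions it was 2 in a fit of only the groups compared, against 1. Between MkP and LT-HSC, against 0, it was 2 in WT with DESeq2, between 0 and 1 in WT when single libraries were left out (1 without WT LT-HSC library 31) and 1 in V617F in a fit of only the groups compared. Signs that turned belong to members that did not pass in that comparison, and the cause was not tested.

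When single libraries were left out, log2 fold changes in CD41-negative HSC (V617F over WT) lay between -0.43 and 0.01 for Angpt1 and -0.12 and 0.11 for Tek. In LT-HSC they lay between -0.49 and 0.46 for Itgb1, -0.71 and 0.74 for Angpt1, -1.69 and 4.69 for Lepr and -0.89 and 0.66 for Tek, and in MkP between -0.87 and 1.37 for Cxcr4. For CD41-positive over CD41-negative HSC in WT, Angpt1 lay between -0.25 and 0.22. For MkP over LT-HSC they lay between -0.22 and 0.95 for Angpt1 and -1.37 and 0.58 for Vcam1 in WT, and between -0.06 and 1.10 for Cxcr4, -0.12 and 0.76 for Tek and -0.35 and 0.34 for Itga4 in V617F. For the genotype effect in MkP minus that in LT-HSC they lay between -2.41 and 5.51 for Cxcl12, -0.78 and 0.13 for Itgb1, -1.96 and 5.38 for Lepr, -0.30 and 1.15 for Angpt1 and -2.23 and 0.01 for Cxcr4.

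Other turns of sign were as follows. Without a filter, Tek in CD41-negative HSC was 0.01 and Angpt1 between WT fractions 0.04. In LT-HSC, Itgb1 and Angpt1 were -0.02 and -0.03 with RLE size factors and with DESeq2, -0.02 and -0.02 with the 5 CPM filter, and 0.00 and -0.01 with only the groups compared. With limma-voom, Lepr and Tek in LT-HSC were 2.08 and 0.20, Cxcr4 in MkP 0.29, Angpt1 between WT fractions 0.04, and the difference of genotype effects -1.23 for Cxcl12 and -0.38 for Lepr. Angpt1 between WT fractions was 0.02 with only the groups compared and 0.25 with the replicate block. The block changed no call between fractions. In WT, same-numbered libraries correlated at 0.043 and 0.024 between fractions and -0.033, -0.006 and 0.023 between MkP and LT-HSC. These values cannot tell whether same-numbered WT libraries share a mouse, which the labels do not state. Without a test, Cxcr4 in CD41-positive HSC was -0.42 with the block, against 0.11. Sex could not be fitted as a covariate in LT-HSC. Low counts limit Cxcl12, Lepr and Vcam1, which had 3 counts or fewer in 7, 9 and 5 of 23 libraries. Over all genes, the calls of V617F against WT were 1941 in CD41-negative HSC (269 to 6021 over the alternatives), 168 in CD41-positive HSC (32 to 520), 9 in LT-HSC (0 to 488) and 250 in MkP (46 to 1137). Between fractions they were 4960 in V617F (3333 to 6572) and 4917 in WT (1215 to 7082), between MkP and LT-HSC 156 in V617F (31 to 2972) and 1271 in WT (6 to 2803), and for the difference of genotype effects 65 (0 to 523).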
